A study of Homo sapiens with 8 samples.

Results

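The knockdown of the long intergenic noncoding RNA SLINKY was examined in 786-O cells, a VHL-deficient cell line of clear cell renal cell carcinoma (ccRCC), with all 4 of its RNA-seq libraries out of the 8 in the series. The 2 non-targeting control (NTC) libraries, numbered 1 and 2, were set against 1 library of cells transfected with SLINKY siRNA #1 and 1 with siRNA #2. The other 4 libraries, of the ccRCC line A498, had the same groups and were used only for comparison. All cells were transfected with siRNA at 50 nM, the labels give 16 hr and the study's methods a later time of RNA isolation, and the labels call every siRNA a pool while the methods describe 2 separate SLINKY siRNAs. Nothing states that the libraries of a group came from separate cultures, each siRNA had no replicate of its own, and the p-values below take the 2 siRNAs as the replicates of the knockdown. The values are FPKM, the fragments of a transcript relative to its length and to the mapped reads of the library. RefSeq entries were added up per gene symbol, which gave 22678 genes, and those that averaged 1 FPKM or more over the 4 libraries and spanned 200 bp or more, 10358 in all, were tested.

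SLINKY is transcribed from the plus strand of chromosome 7 and encodes no known protein. Long noncoding RNAs can act on genes beside them or, by binding proteins, on transcripts elsewhere. In a cell, short interfering RNAs guide the cleavage of a matching transcript, and double-stranded RNA can also be sensed by receptors that induce interferon-stimulated genes and, through the transcription factor NF-kB, cytokines. Genes of both responses were counted here beside those of the cell cycle, hypoxia and other functions, in lists chosen with earlier results of these data known. The deposited SLINKY entry lies at chr7:106415457-106436010 (hg19), and PIK3CG, a protein-coding gene farther along the chromosome, at chr7:106505924-106547592.

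The identity of the cells was checked with marker genes. All 10 renal epithelial and ccRCC markers were above 1 FPKM, with summed levels of 3444 to 3749 FPKM, among them PAX8, a kidney lineage factor, and EPAS1, which encodes HIF2A. Of 6 leukocyte markers 1, CD68, was above 1 FPKM (summed level 2.29 and 4.84 FPKM in NTC cells, 1.73 FPKM in siRNA #1 cells and 5.25 FPKM in siRNA #2 cells), and PTPRC and CD3E were listed at 0. None of 5 endothelial and none of 6 fibroblast markers was above 1 FPKM. The hepatocyte and neuron markers above 1 FPKM were SNAP25 and GAD1, 2 of 6. The depth, estimated from entries with a single read, was about 36180000 and 64420000 mapped reads for the NTC libraries, 36430000 for siRNA #1 and 46850000 for siRNA #2. The median absolute difference between the NTC libraries was 0.083 on the log2 scale, and 310 of the 10358 genes differed between them by at least 0.322 on that scale, the study's fold threshold, at which the higher level exceeds the lower by 25%.

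The targeted transcript was lower with each siRNA. SLINKY was 1.45 FPKM in NTC 1 and 1.39 FPKM in NTC 2, against 0.0569 FPKM in siRNA #1 cells and 0.594 FPKM in siRNA #2 cells. These levels were 96.0% and 58.2% below the NTC mean, so siRNA #1 left the lower level, and neither siRNA library overlapped the controls. The deposited 95% interval of siRNA #2, 0.0974 to 1.09 FPKM, did overlap those of the NTC libraries. The mean log2 change was -2.21, and the exact permutation test (two-sided) gave p = 0.333, the smallest value that 2 against 2 libraries allow. There were 3 assembled lncRNA entries that share bases with SLINKY. Summed with them, the locus held 3.51 and 3.80 FPKM in NTC cells, 0.815 FPKM in siRNA #1 cells and 1.64 FPKM in siRNA #2 cells, which is 77.7% and 55.2% below the NTC mean. PIK3CG was listed at 0 in 3 of the 4 libraries and at 0.0041 FPKM in siRNA #2 cells.

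**Figure D1:**
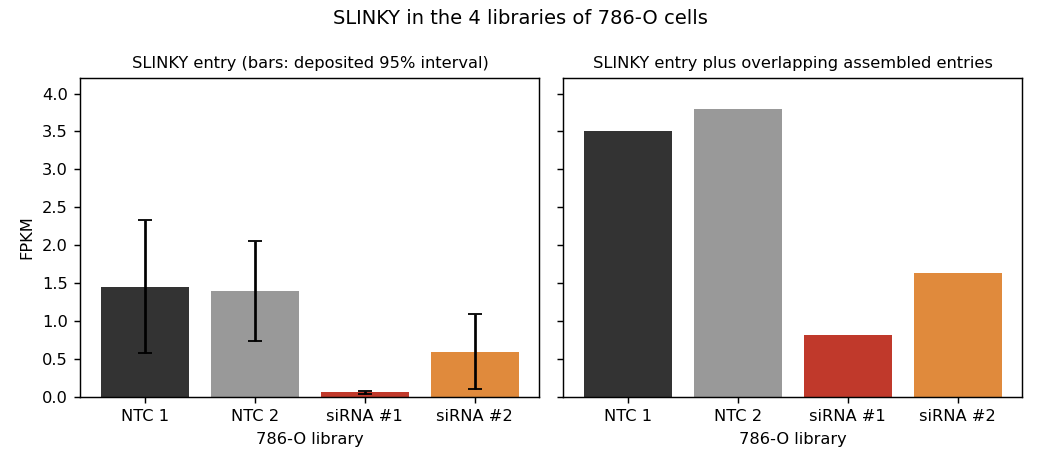
SLINKY FPKM in each 786-O library, for its own entry (left, with the deposited 95% interval) and summed with the assembled lncRNA entries that overlap it (right). Both siRNA libraries lie below both NTC libraries in each panel, with siRNA #1 (0.0569 and 0.815 FPKM) below siRNA #2 (0.594 and 1.64 FPKM).

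The genes around SLINKY were examined because a long intergenic noncoding RNA may act on its neighbours. Of 11 genes within about 1 Mb, 7 were tested. None was counted by the rule described next, which took in 0.531% of all genes. NAMPT, which encodes an enzyme of NAD synthesis, was 20.2 and 19.6 FPKM in NTC cells, 18.1 FPKM in siRNA #1 cells and 21.0 FPKM in siRNA #2 cells. CBLL1, a ubiquitin ligase gene, was 8.17 and 7.91 FPKM in NTC cells, 9.70 FPKM in siRNA #1 cells and 8.61 FPKM in siRNA #2 cells, and was the 1 member with both siRNA libraries above both controls, a position held by 19.2% of all genes tested.

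Over all genes, few differences exceeded both the fold threshold and the spread of the controls. A gene was counted as higher or lower with both siRNAs where each siRNA's log2(FPKM + 0.1) lay at least the fold threshold away from the NTC mean, in the same direction, and farther than the NTC libraries lay from each other. By this rule 55 genes were counted (0.531% of those tested), 39 higher (0.377%) and 16 lower (0.154%). The rule draws its NTC spread from 2 libraries. Without 1 NTC library no spread was required, and without 1 siRNA library the change of the other alone was enough. These weaker rules gave 120 genes without NTC 1, 122 without NTC 2, 217 without siRNA #1 and 416 without siRNA #2. In limma with Benjamini-Hochberg adjustment, 1 gene passed an adjusted p of 0.05 (0.00965%), 415 had an unadjusted p under 0.05 (4.01%), and the adjusted p of the 39 higher genes ranged from 0.635 to 0.977. Without NTC 1, limma called 4 genes, without NTC 2 1 gene, without siRNA #1 9 and without siRNA #2 42. CD274 lay just inside the threshold, with a smaller siRNA change of 0.325 on the log2 scale, and PSKH1 and MARS2 just outside it, with 0.316 each.

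Cufflinks divides the reads of overlapping entries between them, so the genes were split by whether entries of another name sharing their bases held at least 10% of the gene's own FPKM. Shared bases were judged from the start and end of each locus, with introns included and strand ignored. The split therefore does not show that reads were shared. Of the 39 higher genes 24 had no such overlap, and of the 16 lower genes 6. Over all genes, 8313 of 10358 had none. In the 24 higher genes, the median fold over the NTC mean was 1.43 with siRNA #1 and 1.33 with siRNA #2, and the change was larger with siRNA #1 in 19. The 95% intervals used were those deposited for genes of 1 entry and were combined over entries for the others. Those of either siRNA library lay apart from those of either NTC library for 12 of the 24 and for 1 of the 6. Over all genes tested this held for 93 genes upward (0.898%) and 92 downward (0.888%). The rule chose its genes by the same FPKM values, which favours separate intervals, so these shares give the rule no support. Of the 24 genes 1, on the Y chromosome, is not described further.

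Among the higher genes that had no overlapping entry, QRFP, TSPAN2, GSTA4 and CCL2 had the largest mean changes. TSPAN2, at chr1:115590633-115632121 (hg19), encodes a tetraspanin of the cell membrane and was 4.48 and 4.65 FPKM in NTC cells, 8.17 FPKM in siRNA #1 cells and 6.78 FPKM in siRNA #2 cells. The log2 change of TSPAN2 was 0.69 ± 0.10 (SE; limma, adjusted p = 0.635), and the control libraries lay close together. CCL2, at chr17:32582296-32584220, encodes a chemokine that attracts monocytes. It was 19.1 and 18.7 FPKM in NTC cells, 32.8 FPKM in siRNA #1 cells and 25.6 FPKM in siRNA #2 cells, a log2 change of 0.61 ± 0.11 (SE; limma, adjusted p = 0.646). The siRNA libraries of CCL2 differed from each other more than the controls did. QRFP, the gene of a neuropeptide precursor, was less abundant, at 0.659 and 0.741 FPKM in NTC cells, 1.83 FPKM in siRNA #1 cells and 1.12 FPKM in siRNA #2 cells. Of the 17 tetraspanins tested, TSPAN2 was the 1 counted as higher, against 0.377% of all genes. Both siRNA libraries were above both NTC libraries in 3 (17.6%, against 19.2% of all genes) and below both in 4 (23.5%, against 13.8%).

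The kinase gene WEE1, the DNA repair gene TDG and the genes SCML1, TRIB1 and AMMECR1 were also higher with both siRNAs. WEE1 encodes the kinase that holds CDK1 inactive before mitosis and was 8.37 and 7.39 FPKM in NTC cells, 11.9 FPKM in siRNA #1 cells and 10.7 FPKM in siRNA #2 cells (chr11:9596234-9611313). Its log2 change was 0.51 ± 0.09 (SE; limma, adjusted p = 0.635). TDG encodes thymine DNA glycosylase, which starts base excision repair at T:G mismatches, and was 6.24 and 6.07 FPKM in NTC cells, 7.99 FPKM in siRNA #1 cells and 8.55 FPKM in siRNA #2 cells. It was the 1 of 15 base excision repair genes tested that was counted as higher, against 0.377% of all genes. In that list 1 gene had both siRNA libraries above both NTC libraries (6.67%, against 19.2% of all genes). SCML1, a polycomb-related gene, was 9.33 and 8.28 FPKM in NTC cells, 13.6 FPKM in siRNA #1 cells and 11.6 FPKM in siRNA #2 cells. It was the 1 of 22 polycomb and chromatin regulators counted as higher, against 0.377% of all genes. The interval of SCML1 in NTC 2, combined over its entries, was 1.36 to 17.6 FPKM and held both siRNA values. TRIB1, a pseudokinase gene at chr8:126442563-126450644, was 2.77 and 2.65 FPKM in NTC cells, 3.93 FPKM in siRNA #1 cells and 3.80 FPKM in siRNA #2 cells. AMMECR1 was 4.22 and 4.06 FPKM in NTC cells, with 5.73 FPKM and 5.77 FPKM for the siRNAs. In TRIB1 and AMMECR1 the siRNAs lay closer to each other than in CCL2. In all of these genes every siRNA library was above every NTC library, which the rule itself requires.

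The remaining higher genes without an overlapping entry were GSTA4, ZNF439, ZNF93, CLEC4E, C3orf52, FEM1B, VSTM1, SPATA7, CD274 and the members of the gene lists described next. GSTA4 encodes a glutathione transferase that detoxifies lipid aldehydes and was 0.773 and 0.760 FPKM in NTC cells, 1.63 FPKM in siRNA #1 cells and 1.03 FPKM in siRNA #2 cells. CD274, the gene of the immune checkpoint ligand PD-L1, was named after its values were seen. It was 4.38 and 4.15 FPKM in NTC cells, 5.52 FPKM in siRNA #1 cells and 5.36 FPKM in siRNA #2 cells, close to the threshold.

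**Figure D2:**
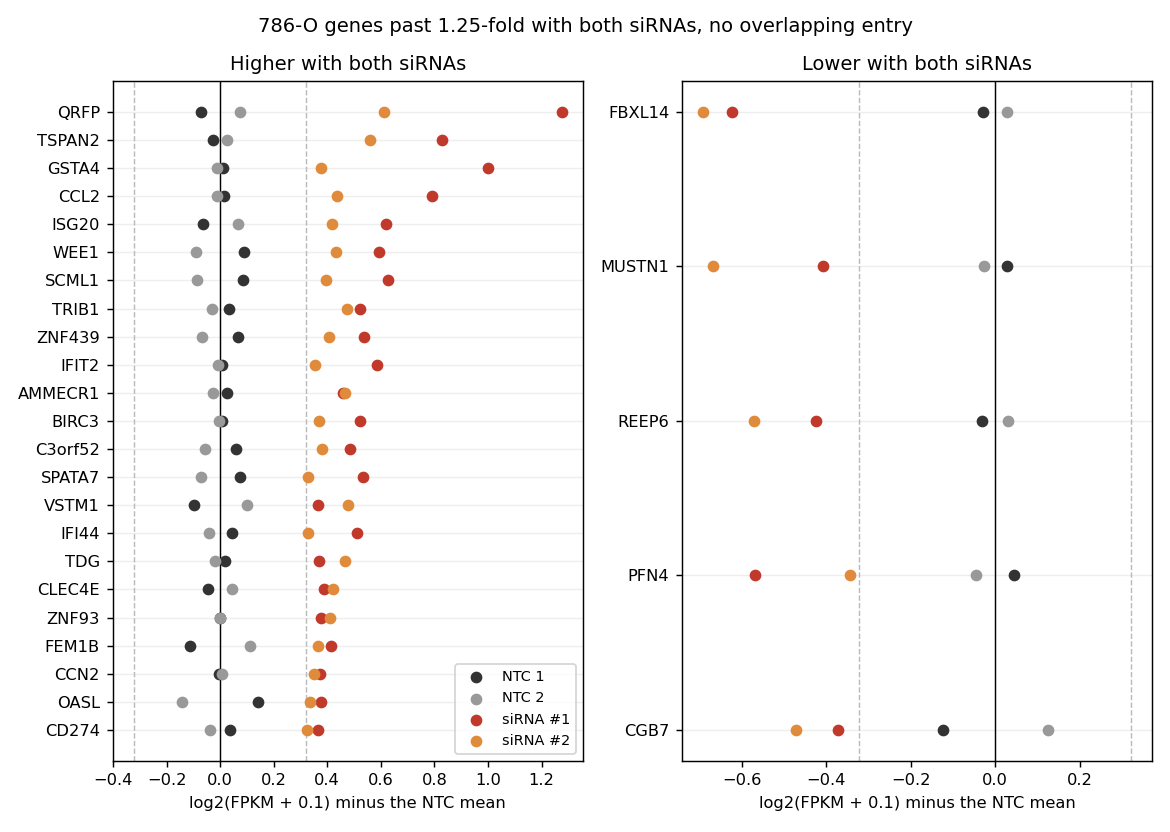
Each point is 1 library of 786-O cells, plotted as log2(FPKM + 0.1) minus the mean of the NTC libraries, for the genes without an overlapping entry that were higher (left) or lower (right) with both siRNAs, with 1 Y-linked gene and 1 lower gene left out. Dashed lines mark the fold threshold of 0.322. In the higher genes siRNA #1 often lies farther from the controls than siRNA #2, by most in QRFP, GSTA4 and CCL2, while the NTC libraries stay within the dashed lines.

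The interferon-stimulated genes encode proteins that act against viruses after interferon or double-stranded RNA is sensed. Of 44 listed, 35 were tested, and 4 were higher with both siRNAs (0.377% of all genes) and none lower (0.154% of all genes). IFI44, at chr1:79115477-79129763, was 12.0 and 11.3 FPKM in NTC cells, 16.7 FPKM in siRNA #1 cells and 14.7 FPKM in siRNA #2 cells, a log2 change of 0.42 ± 0.08 (SE; limma, adjusted p = 0.735). IFIT2, which encodes an RNA-binding protein that restrains translation, was 2.63 and 2.60 FPKM in NTC cells, 3.98 FPKM in siRNA #1 cells and 3.38 FPKM in siRNA #2 cells. ISG20 encodes an exonuclease of RNA and was near the expression limit, at 1.02 and 1.13 FPKM in NTC cells, 1.70 FPKM in siRNA #1 cells and 1.47 FPKM in siRNA #2 cells. OASL, an oligoadenylate synthetase-like gene, was 1.90 and 1.54 FPKM in NTC cells, 2.25 FPKM in siRNA #1 cells and 2.19 FPKM in siRNA #2 cells, with controls that lay far apart. In all 4, siRNA #1 was above siRNA #2. Over the list, 16 of 35 genes had both siRNA libraries above both NTC libraries (45.7%, against 19.2% of all genes tested) and 2, STAT2 and IRF7, had both below (13.8% of all genes). The median log2 change was 0.08, against 0.0070 over all genes. It was 0.13 with siRNA #1 and 0.08 with siRNA #2, and the list's median absolute difference between the NTC libraries was also 0.08. In limma 7 members had an unadjusted p under 0.05 but none an adjusted one.

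The NF-kB targets and cytokines had the highest share of genes above the controls among the lists. Of 29 tested, 14 had both siRNA libraries above both NTC libraries (48.3%) and none had both below, and the median log2 change was 0.17. The median was 0.14 with siRNA #1 and 0.07 with siRNA #2, and the list's median absolute difference between the NTC libraries was 0.08. BIRC3 encodes the ubiquitin ligase cIAP2 of the TNF receptor pathway and was 16.7 and 16.6 FPKM in NTC cells, 23.9 FPKM in siRNA #1 cells and 21.5 FPKM in siRNA #2 cells (log2 change 0.45 ± 0.08 (SE); limma, adjusted p = 0.635; chr11:102188181-102210135). The interval of BIRC3 in NTC 1, combined over its entries, was 5.99 to 29.0 FPKM and held both siRNA values. BIRC3 and CCL2 were the 2 members counted as higher by the rule, against 0.377% of all genes. Other members are given after their values were seen. TNFAIP3, a feedback inhibitor of NF-kB, was 4.07 and 3.84 FPKM in NTC cells, 5.52 FPKM in siRNA #1 cells and 4.80 FPKM in siRNA #2 cells. CXCL8, the gene of interleukin 8, was 42.9 and 43.4 FPKM in NTC cells, 55.5 FPKM in siRNA #1 cells and 50.3 FPKM in siRNA #2 cells. The adhesion molecule gene VCAM1 was 10.3 and 10.8 FPKM in NTC cells, 14.1 FPKM in siRNA #1 cells and 13.1 FPKM in siRNA #2 cells. In each of these genes siRNA #1 was the higher of the siRNAs, but the inhibitor gene NFKBIA was 51.2 and 52.5 FPKM in NTC cells, 57.7 FPKM in siRNA #1 cells and 61.04 FPKM in siRNA #2 cells. In bulk libraries, a larger share of some cells and more RNA per cell cannot be told apart.

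The TGF-beta and YAP targets and the immediate early genes also had shares of genes above the controls that were higher than that of all genes. Of 25 TGF-beta and YAP targets tested, 10 had both siRNA libraries above both NTC libraries (40.0%) and 2 had both below. CCN2, a matricellular protein gene induced by TGF-beta and YAP, was the 1 member counted as higher, against 0.377% of all genes. It was 12.3 and 12.4 FPKM in NTC cells, 16.1 FPKM in siRNA #1 cells and 15.8 FPKM in siRNA #2 cells. Of 23 immediate early genes and feedback regulators of MAP kinases, 9 had both siRNA libraries above both controls (39.1%), 2 had both below, and none reached the fold threshold with both siRNAs. Among them, DUSP5, a phosphatase gene of the ERK pathway, was 13.9 and 13.3 FPKM in NTC cells, 18.9 FPKM in siRNA #1 cells and 16.4 FPKM in siRNA #2 cells. MYC was 45.7 and 44.1 FPKM in NTC cells, 53.05 FPKM in siRNA #1 cells and 53.8 FPKM in siRNA #2 cells. DUSP5 and MYC were chosen after their values were seen.

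**Figure D3:**
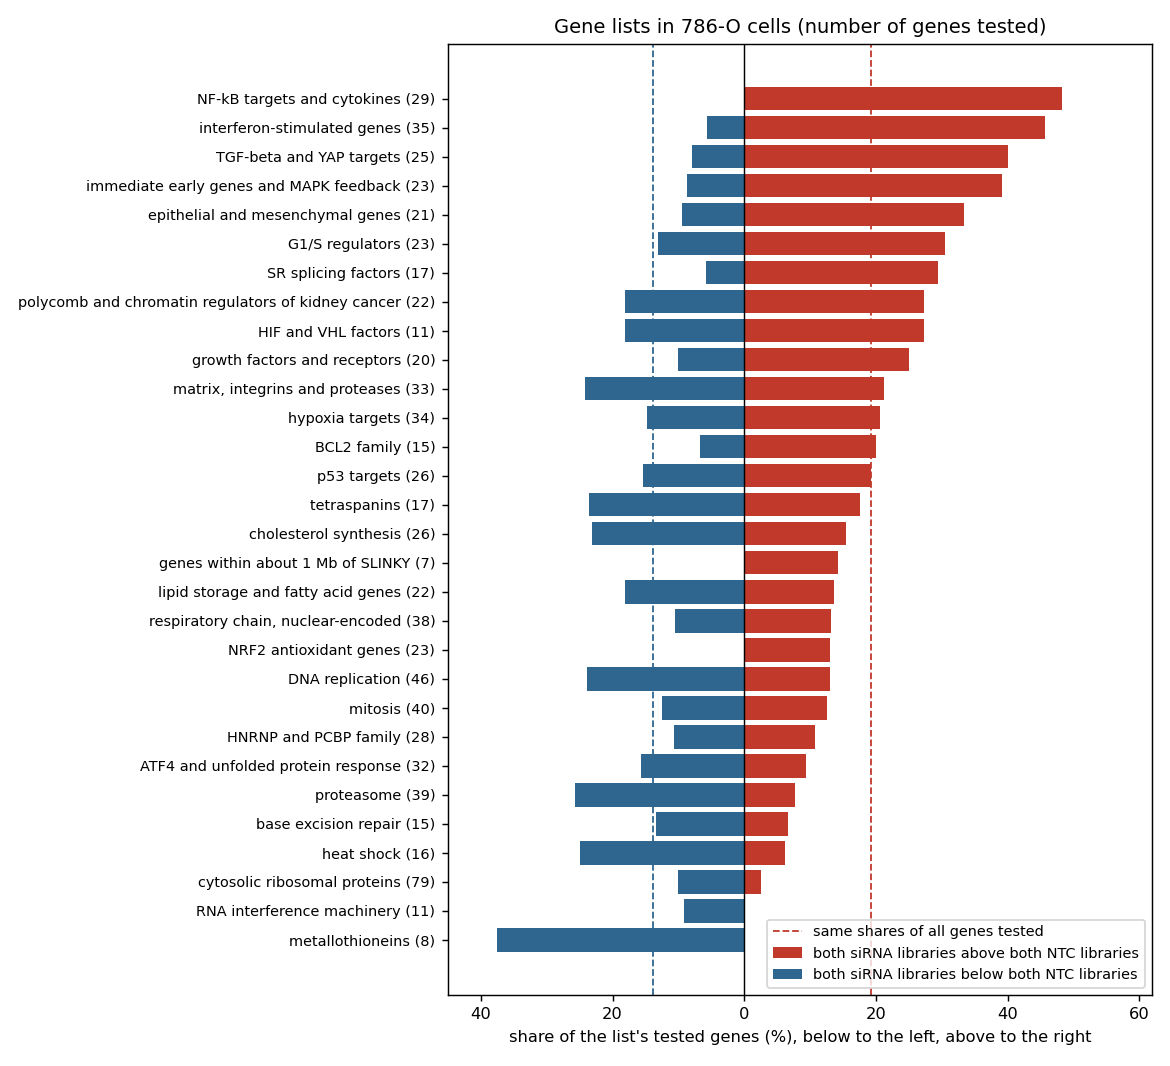
For each gene list, the bars give the share of its tested genes with both siRNA libraries above both NTC libraries (right, red) or below both (left, blue) in 786-O cells, and the dashed lines give the shares of all genes tested, 19.2% and 13.8%. Lists are ordered by the share above. The NF-kB targets (48.3% above, 0 below) and the interferon-stimulated genes (45.7% above) lie at the top. At the bottom, with none above, are the metallothioneins (3 of 8 below) and the RNA interference machinery (1 of 11 below).

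Promoters of the higher genes are shown for the interferon, NF-kB and TGF-beta or YAP lists and for CD274, to set the letters that the factors of these pathways recognise beside the values. The sequences, from RefSeq (GRCh38.p14), run from 250 bases before the gene's start to 50 after it, and 27 of the 39 higher genes had an entry. IFIT2, OASL and CCL2, also higher members of these lists, are named only. Capitals mark matches on either strand to the interferon response element core (GAAA, any 2 bases and GAAA again), the NF-kB motif, the AP-1 motif TGANTCA or the TEAD motif GGAATG, and matches may overlap.
IFI44 (chr1:78649539-78649838, plus strand): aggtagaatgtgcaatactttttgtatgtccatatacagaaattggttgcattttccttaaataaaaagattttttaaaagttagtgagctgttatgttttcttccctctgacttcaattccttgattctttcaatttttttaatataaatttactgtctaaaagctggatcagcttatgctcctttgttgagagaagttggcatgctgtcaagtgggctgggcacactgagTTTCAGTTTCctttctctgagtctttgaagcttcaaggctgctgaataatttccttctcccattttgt
ISG20 (chr15:88638766-88639065, plus strand): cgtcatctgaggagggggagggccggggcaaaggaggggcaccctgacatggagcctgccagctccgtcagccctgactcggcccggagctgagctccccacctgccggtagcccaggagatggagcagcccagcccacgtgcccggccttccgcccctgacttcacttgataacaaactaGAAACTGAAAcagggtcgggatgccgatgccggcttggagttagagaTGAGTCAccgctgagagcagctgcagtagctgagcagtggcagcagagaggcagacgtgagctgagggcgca
CD274 (chr9:5450292-5450591, plus strand): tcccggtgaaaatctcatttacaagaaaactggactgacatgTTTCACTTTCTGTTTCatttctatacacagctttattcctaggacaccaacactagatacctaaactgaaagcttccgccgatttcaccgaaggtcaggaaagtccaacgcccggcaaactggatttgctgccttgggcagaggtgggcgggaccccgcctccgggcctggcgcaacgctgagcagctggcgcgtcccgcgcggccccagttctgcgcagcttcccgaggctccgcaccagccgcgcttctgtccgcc
BIRC3 (chr11:102317234-102317533, plus strand): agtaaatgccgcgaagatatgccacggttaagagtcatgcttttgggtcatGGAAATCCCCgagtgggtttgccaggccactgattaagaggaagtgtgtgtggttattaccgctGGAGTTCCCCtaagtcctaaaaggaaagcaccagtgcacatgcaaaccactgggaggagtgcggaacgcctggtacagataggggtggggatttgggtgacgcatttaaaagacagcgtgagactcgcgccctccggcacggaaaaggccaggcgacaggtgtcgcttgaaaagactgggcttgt
CCN2 (chr6:131951323-131951622, minus strand): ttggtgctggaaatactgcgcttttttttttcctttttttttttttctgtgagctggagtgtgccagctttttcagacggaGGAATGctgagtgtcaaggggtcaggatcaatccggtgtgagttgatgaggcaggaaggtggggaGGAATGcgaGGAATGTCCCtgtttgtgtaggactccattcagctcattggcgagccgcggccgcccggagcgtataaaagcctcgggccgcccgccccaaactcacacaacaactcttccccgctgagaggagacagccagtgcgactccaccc
The interferon response core was in the promoters of IFI44, with its first base 18 bases before the start, ISG20, 69 bases before, and CD274, where 2 overlapping matches began 208 and 202 bases before. It was in 3 of the 27 promoters and in 3.65% of all 27305 in the table. The NF-kB motif was in BIRC3 at 199 and 135 bases before the start and in 5 of the 27 promoters, against 10.8% of all. CCN2 held the TEAD motif 3 times, 1 of them inside its NF-kB match. The TEAD motif was in 2 of the 27 (14.0% of all) and the AP-1 motif, present in ISG20, in 3 of the 27 (7.76% of all). A match describes the letters of the window and shows no binding.

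Lower genes were fewer. Without an overlapping entry there were 6, of which FBXL14, the gene of an F-box protein that directs ubiquitination, had the largest change. FBXL14, at chr12:1675159-1703331, was 2.19 and 2.28 FPKM in NTC cells, 1.42 FPKM in siRNA #1 cells and 1.35 FPKM in siRNA #2 cells, a log2 change of -0.66 ± 0.11 (SE; limma, adjusted p = 0.635). REEP6, which encodes a membrane-shaping protein of the endoplasmic reticulum, was 2.21 and 2.31 FPKM in NTC cells, 1.66 FPKM in siRNA #1 cells and 1.49 FPKM in siRNA #2 cells. MUSTN1 was 2.35 and 2.26 FPKM in NTC cells, 1.71 FPKM in siRNA #1 cells and 1.41 FPKM in siRNA #2 cells. CGB7, a gonadotropin subunit gene, and PFN4, of the profilin family, were also lower. All 6 were expressed at low levels, under 5 FPKM in every library, and siRNA #1 gave the larger change in 1 of them.

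The largest changes of all were at genes that share bases with another entry. PSMA3-AS1, an antisense transcript of the proteasome gene PSMA3, was the 1 gene that passed limma, and it fell (adjusted p = 0.00027). PSMA3-AS1 was 3.66 and 3.39 FPKM in NTC cells, 0.0012 FPKM in siRNA #1 cells and 0.0019 FPKM in siRNA #2 cells. An entry overlapping it, of PSMA3, was 74.0 and 85.8 FPKM in NTC cells, 98.2 FPKM in siRNA #1 cells and 64.8 FPKM in siRNA #2 cells, and the log2 change of the sum was -0.06. PSMA3 was so much more abundant that the sum could hardly show a loss of PSMA3-AS1. An entry of PSMA3-AS1 carried the status FAIL from Cufflinks. Its 95% interval in NTC 1, combined over its entries, reached from 0 to 7.96 FPKM, and limma no longer called it without NTC 2. The counting is not stated to use strand, so reads of the antisense and sense genes cannot be told apart. With overlapped genes left out, 0 genes passed limma and 357 had an unadjusted p under 0.05.

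In its RefSeq entry MAP3K14, the gene of the NF-kB-inducing kinase, was 5.65 and 6.91 FPKM in NTC cells, 2.04 FPKM in siRNA #1 cells and 1.46 FPKM in siRNA #2 cells (log2 change -1.79 ± 0.17 (SE); limma, adjusted p = 0.0673). An entry of MAP3K14 also carried the status FAIL, and its deposited interval reached from 0 to 10.9 FPKM in NTC 1 and from 0 to 12.6 FPKM in NTC 2. A GENCODE entry over the same bases, which bears the Ensembl identifier of MAP3K14 itself, held 22.1 and 23.1 FPKM in NTC cells, 26.9 FPKM in siRNA #1 cells and 22.1 FPKM in siRNA #2 cells. The sum had a log2 change of -0.14, so the fall above is that of the RefSeq entry alone. PITPNA-AS1, an antisense transcript of the phosphatidylinositol transfer gene PITPNA, had the largest change upward, with 5.16 and 1.41 FPKM in NTC cells, 12.9 FPKM in siRNA #1 cells and 12.2 FPKM in siRNA #2 cells. Its controls differed by 1.80 on the log2 scale. The sum of PITPNA-AS1 and PITPNA had a log2 change of 0.40. INO80B, a chromatin remodelling gene, was 6.30 and 7.48 FPKM in NTC cells and 5.34 FPKM with each siRNA, while the readthrough transcript INO80B-WBP1 over the same bases was 3.64 and 3.81 FPKM in NTC cells, 6.11 FPKM in siRNA #1 cells and 5.02 FPKM in siRNA #2 cells. Their sum had a log2 change of 0.04.

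Of 18 such genes examined with their highest overlapping entry, the sum stayed under the fold threshold in 13. The sums past that size were those of PITPNA-AS1, PIERCE2, RPL21, ZBED5-AS1 and UBL7-DT, and in RPL21, ZBED5-AS1 and UBL7-DT they had the opposite sign. Where the overlapping entry was far more abundant, the sum could hardly change whatever the gene did. SPSB2, for example, was 14.8 FPKM in NTC 1 and its overlapping entry, of TPI1, 942 FPKM. Such sums cannot tell reads given to another entry from reads lost. HMGA2, an architectural chromatin factor, was 6.97 and 6.33 FPKM in NTC cells, 9.25 FPKM in siRNA #1 cells and 9.09 FPKM in siRNA #2 cells, and with RPSAP52 added its log2 change went from 0.46 to 0.21. CCNE2 encodes cyclin E2, which drives the entry into S phase, and was 5.13 and 5.17 FPKM in NTC cells, 7.25 FPKM in siRNA #1 cells and 6.93 FPKM in siRNA #2 cells. With INTS8, which shares bases with it, the log2 change of CCNE2 went from 0.45 to 0.27.

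**Figure D4:**
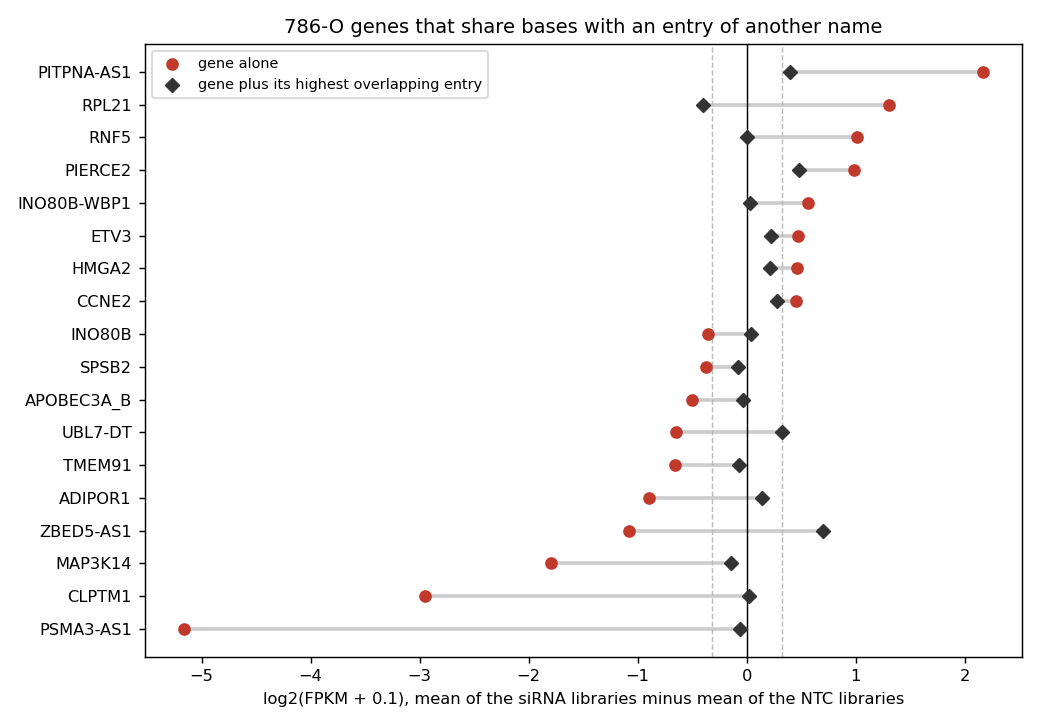
For 18 genes of 786-O cells whose locus, introns included, overlaps another entry, the mean log2 change with SLINKY knockdown is plotted. Circles show the gene alone and diamonds the sum with its highest overlapping entry. For MAP3K14 that entry bears the Ensembl identifier of the same gene. Dashed lines mark the fold threshold of 0.322. The change of PSMA3-AS1 goes from -5.16 to -0.06 and that of MAP3K14 from -1.79 to -0.14. Where the overlapping entry is far more abundant than the gene, the sum can hardly change.

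The lists of the cell cycle and of hypoxia had few members past the rule. It counted 0.531% of all genes, so few or none are expected in lists of this size. Of all genes, 19.2% were above both controls and 13.8% below. Of 23 G1/S regulators tested CCNE2 was counted as higher, 7 had both siRNA libraries above both NTC libraries (30.4%) and 3 had both below. None of 46 DNA replication genes was counted, 6 were above both controls and 11 below (23.9%), and the median log2 change was -0.04. Of 40 mitosis genes none was counted, 5 were above and 5 below (12.5% each). None of 11 HIF and VHL factors was counted. EPAS1 was 7.25 and 7.44 FPKM in NTC cells, 6.997 FPKM in siRNA #1 cells and 8.15 FPKM in siRNA #2 cells. Of 34 hypoxia targets none was counted, 7 were above and 5 below, shares close to those of all genes. Of 11 genes of the RNA interference machinery, none was counted, none was above both controls and 1 was below. The HNRNP and PCBP family, RNA-binding proteins that take part in splicing, had 3 of 28 above and 3 below (10.7% each).

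Whether the higher genes were also higher in A498 was examined next, since A498 has its own NTC libraries while the siRNAs were the same. Of the 24 higher genes without an overlapping entry, 19 had a mean of at least 1 FPKM in A498. In 12 of the 19 both A498 siRNA libraries were above both A498 NTC libraries (63.2%, against 20.8% of all genes at that level), and none had both below. In overlapped genes this held for 3 of 14, with 3 on the opposite side. Of the 5 lower genes that could be compared, FBXL14 alone was below in A498 as well (16.7% of all genes). TSPAN2 was 1.01 and 1.15 FPKM in NTC cells of A498, 1.81 FPKM in siRNA #1 cells and 2.12 FPKM in siRNA #2 cells. WEE1 was 11.3 and 11.5 FPKM in NTC cells of A498, 14.2 FPKM in siRNA #1 cells and 16.1 FPKM in siRNA #2 cells. TSPAN2, SCML1 and TDG were past the fold threshold with both siRNAs in A498 too.

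In other genes the A498 values lay nearer to the controls. CCL2 was more abundant in A498, at 194.4 and 198.0 FPKM in NTC cells, 217.6 FPKM in siRNA #1 cells and 236.2 FPKM in siRNA #2 cells. IFI44 was 110.1 and 110.1 FPKM in NTC cells of A498, 112.5 FPKM in siRNA #1 cells and 121.9 FPKM in siRNA #2 cells. ISG20 was 60.6 and 52.1 FPKM in NTC cells of A498, 49.5 FPKM in siRNA #1 cells and 55.1 FPKM in siRNA #2 cells, groups that overlap. Among the 12 genes above both controls in A498, siRNA #2 gave the larger change in 10 there, while siRNA #1 gave the larger change in 10 of them in 786-O. The difference between the cell lines, tested as an interaction in limma, had an adjusted p under 0.05 for none of the 19 genes and an unadjusted p under 0.05 for 11, each with the larger change in 786-O, a direction that choosing genes by their change in 786-O favours. Of all 10358 genes, 194 had an unadjusted p under 0.05 in this interaction and 2 passed (0.0193%), MAPK8 and PSMA3-AS1. After overlapped genes were left out, 145 of 8313 had an unadjusted p under 0.05 and none passed.

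**Figure D5:**
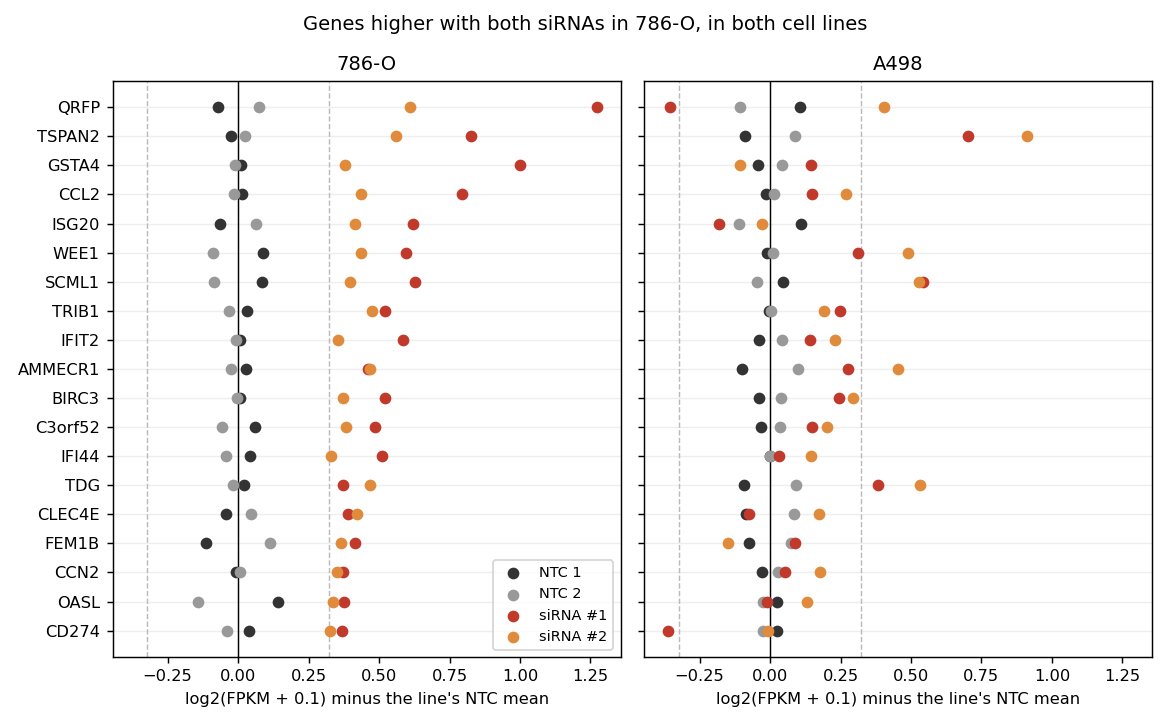
The higher genes of 786-O without an overlapping entry and with at least 1 FPKM in A498, plotted as log2(FPKM + 0.1) minus the NTC mean of the same cell line, for each library. Dashed lines mark the fold threshold of 0.322. In A498, 12 of the 19 genes have both siRNA libraries above both controls, and TSPAN2, SCML1 and TDG pass the fold threshold with both.

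The same gene lists were counted in A498. Of 35 interferon-stimulated genes at that level, 13 had both siRNA libraries above both NTC libraries (37.1%, against 20.8% of all genes) and 3 had both below (8.57%, against 16.7%). Of 26 NF-kB targets and cytokines 10 were above (38.5%) and 2 below, and of 25 TGF-beta and YAP targets 10 were above (40.0%) and 6 below (24.0%). The immediate early and MAP kinase feedback genes differed in direction, with 4 of 23 above and 7 below in A498 against 9 above and 2 below in 786-O, and this difference between the lines was not tested for the list.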

How the data were processed

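RNA-seq libraries were prepared from total RNA of siRNA-transfected cells and sequenced as single-end reads of 36 bp. The authors aligned the reads to hg19 and deposited FPKM values for each library, with 95% intervals and 75378 entries (RefSeq transcripts, GENCODE lncRNA genes and assembled lncRNAs). The submitters' processing notes name TopHat2 2.0.0 and Cufflinks 2.0.2. No scaling between libraries is stated, and no counts were used, so that count models were not fitted and the limits of depth rest on an estimate from single-read entries that covers counting error only.

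RefSeq entries were given symbols from a RefSeq gene table of GRCh38 used for names only (96.6% matched), and their FPKM were summed per symbol. SLINKY and PIK3CG were taken from the entries that bear their names. Genes averaging 1 FPKM or more over the 4 libraries were tested, after leaving out 338 under 200 bp. Of those tested, 162 had an entry of status FAIL. Tests used limma 3.58.1 in R 4.3.3 on log2(FPKM + 0.1), with the prior variance following mean expression, and Benjamini-Hochberg adjusted p-values over all genes tested were held to 0.05. A fold change on this scale understates the change of low genes. For SLINKY the exact permutation test was used. The calculations were tested on simulated data. Other steps used Python 3.11.15, numpy 2.4.6, pandas 2.3.3 and matplotlib 3.10.9.

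The members and gene lists were chosen with earlier results of these data known. Named were SLINKY, PIK3CG, the 15 higher and 15 lower genes with the largest value of the smaller siRNA change, the genes passing limma, and list members past the rule. The split by overlapping entries was chosen after the data were seen. Alternatives covered the pseudocount, filters, scaling, summing, the replicate block and each library left out. Some items are not reported here.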

Additional observations from a re-analysis of the deposited data

Results flagged for a closer look

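For MAPK8, the gene of the stress kinase JNK1, the change with knockdown was 5.46 larger in 786-O than in A498 on the log2 scale (limma interaction, adjusted p = 0.00126). MAPK8 was 6.00 and 3.05 FPKM in NTC cells of 786-O, 5.81 FPKM in siRNA #1 cells and 7.31 FPKM in siRNA #2 cells, with overlapping siRNA and control values. In A498 it was 2.59 and 3.16 FPKM in NTC cells, 0.0014 FPKM in siRNA #1 cells and 0.0019 FPKM in siRNA #2 cells. Entries of another name that overlap MAPK8 held 1.15 FPKM in 786-O, and their part in the difference was not tested.

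For PSMA3-AS1 the change in 786-O minus that in A498 was -5.90 on the log2 scale (limma interaction, adjusted p = 0.0131). It was near 0 in 3 of the 4 A498 libraries, with 0.0011 FPKM in NTC 1, 0.0011 FPKM in NTC 2, 0.0015 FPKM in siRNA #1 cells and 0.181 FPKM in siRNA #2 cells. The effect of the PSMA3 entries over the same bases was not tested.

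PITPNA-AS1 had a mean log2 change of 2.16 in 786-O, with both siRNA libraries above both controls, whereas in A498 both siRNA libraries, 2.90 and 3.57 FPKM, were below both controls, 3.79 and 5.25 FPKM. Its interaction in limma did not pass, with an adjusted p of 1.00 and an unadjusted p of 0.0024.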

How the results depend on the processing

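In 786-O, limma called 1 gene with a pseudocount of 0.1 FPKM, 2 with a pseudocount of 1, 2 with scaling by the median ratio, 0 with no filter on FPKM (1003 with an unadjusted p under 0.05), 0 with at least 5 FPKM (257) and 20 (7 higher, 13 lower) with no filter on span, which lets in short RNA genes. Among alternatives chosen after seeing the data, it called 0 without overlapped genes and 0 without genes of status FAIL (403 with an unadjusted p under 0.05). With 1 library left out it called 1 to 42 genes, and the lone library left in a group is then assumed to vary like the others.

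The rule for genes higher or lower with both siRNAs gave 55 genes in all, against 26 with a pseudocount of 1, 18 with at least 5 FPKM, 312 with no filter on FPKM, 100 with no filter on span and 117 with the highest entry per symbol in place of the sum, which holds 44 of the 55. It gave 11 at 1.5-fold, 2180 with no fold threshold (1326 higher, 854 lower), 18 with the 95% intervals apart and 30 without overlapped genes (24 higher, 6 lower). With 1 library left out it gave 120 to 416, but the rule then lacked either the NTC spread or the other siRNA.

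For the difference between the cell lines, limma called 2 genes, against 1 with a pseudocount of 0.01, 1 with a pseudocount of 1, 1 with at least 5 FPKM, 12 with no filter on span, 0 without overlapped genes and 1 to 8 with 1 library left out.

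The labels do not say whether the replicate numbers pair the libraries. The deviations of same-numbered libraries had a correlation of 0.072 over genes, but 2 pairs with different siRNAs cannot settle the question. With the replicate block limma called 1 gene, the rule gave 47, of which 42 were shared, and the interaction called 3. In the crossed pairing, chosen after seeing the data, the counts were 2 and 54. SLINKY stayed lower in every alternative, between -0.90 and -3.28 on the log2 scale (-2.21 with the replicate block, -1.57 for the locus sum). Of 431 values of 38 named genes under 12 alternatives, 0 reversed direction. Whether they kept their side of an adjusted p of 0.05 in limma says little, as 1 gene passed in the main setting. Genes could still fall under the fold threshold, as OASL did with a log2 change of 0.25 at a pseudocount of 1. The causes of these changes were not tested beyond what the alternatives themselves change.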

Other observations

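Other lists are given beside the shares of all genes, which were 19.2% above both controls and 13.8% below in 786-O, and 20.8% and 16.7% in A498. Of 39 proteasome genes, 10 had both siRNA libraries below both NTC libraries (25.6%) and 3 above (7.69%), while in A498 7 were below (17.9%) and 8 above (20.5%). Of 79 cytosolic ribosomal protein genes, 8 were below (10.1%) and 2 above (2.53%) in 786-O, and 29 below (36.7%) and 1 above (1.27%) in A498. RPL21 was the 1 ribosomal gene counted as higher, against 0.377% of all genes, and the small nucleolar RNA SNORD102 lies within it. Of 8 metallothionein genes, which encode metal-binding proteins, 3 were below (37.5%) and none above, with a median log2 change of -0.11. MT1M was 32.7 and 32.9 FPKM in NTC cells, 29.8 FPKM in siRNA #1 cells and 26.6 FPKM in siRNA #2 cells, and was chosen after its values were seen. In A498, 5 of 7 metallothioneins were below (71.4%).

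Stress and metabolic lists had no member past the rule, which counted 0.531% of all genes. In 786-O, 4 of 16 heat shock genes were below both controls (25%) and 1 above (6.25%). Of 32 genes of ATF4 and the unfolded protein response 5 were below (15.6%, near the share of all genes) and 3 above (9.38%), and of 23 NRF2 antioxidant genes none was below and 3 were above (13.0%). Of 26 p53 targets 4 were below (15.4%) and 5 above (19.2%), both near the shares of all genes, with a median log2 change of 0.04. Of 26 cholesterol synthesis genes 6 were below (23.1%) and 4 above (15.4%) in 786-O, against 3 below (11.5%) and 10 above (38.5%) in A498.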
